A study of Mus musculus with 12 samples.

Results

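BATF peaks of all 4 BATF libraries, from Th9 and Th17 cells, met at 24 places in the mouse genome, and 10 of these sites, each the only such site of its gene, lay nearest to the start sites of *Arhgef3*, *Man1a*, *Trps1*, *Prdm14*, *Hif1a*, *Twsg1*, *St8sia4*, *Hormad2*, *B3galt2* and *Prdx6*. These 10 genes were chosen from 26180 genes with a start site, because a site called in every library was nearest to them, so the calls and heights at these sites are given as a description and without a test of whether they are high. Of 5873 merged regions, 0.409% were called in all 4 libraries. Regions called in 2 or more libraries made up 4.73%, with 195 in exactly 2 and 59 in exactly 3, and the other 5595 were called in 1 library. A nearest gene is an assignment by distance, and the lists hold no measurement of expression, so neither control of these genes by BATF nor the identity of the cells could be checked here.

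BATF is a basic leucine zipper factor of the AP-1 family. It has no activation domain of its own and binds DNA together with JUN proteins, at the AP-1 site TGACTCA or TGAGTCA, which are the same site read from either strand. With IRF4 or IRF8 it also binds composite elements, in which an AP-1 site stands beside an IRF half-site. A related bZIP site with 1 more base in its centre, TGACGTCA, is the cyclic AMP response element (CRE). Most of its sites in T cells lie in introns and between genes.

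The cells were naive CD4+ T cells of C57BL6/J mice, cultured to day 5 under 2 conditions. The labels give neither age nor sex, and the paper states only that its mice were of both sexes and within a range of ages. Th9 cultures received IL-4, IL-2, TGF-β1 and anti-IFNγ, and Th17 cultures received IL-6, IL-23, IL-1β, TGF-β1 and antibodies to IFNγ, IL-4 and IL-2. Both shared TGF-β1, anti-IFNγ and stimulation through CD3 and CD28. There were 2 BATF libraries per cell type, numbered 1 and 2 (Th9) and 3 and 4 (Th17), and each was called against its input library, its IgG library and both together, giving 12 lists. Values below come from the lists called against both unless another control is named. These lists held 1709, 241, 4111 and 199 peaks in libraries 1 to 4, with a median fold enrichment of 5.54, 6.40, 5.65 and 7.48. Fold enrichment is how many times the pile of fragments at a summit exceeds the level set by the control. The paper gives an approximate number of reads per library, the same for all, and the exact depth of each library is not stated. Nothing states that the 2 libraries of a cell type came from separate animals, so differences between them may be technical.

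The sequences under the summits are shown first, because the sites differed in the motif they carried. All are read on the plus strand of GRCm38 from RefSeq, from 50 bases before the first to 50 bases after the last library summit, at most 300 bases. Capitals mark AP-1-type sites (TGANTCA), the CRE, the composites (TTTC, then 4 bases, then TGANTCA, or GAAA directly before TGANTCA) and the same with TGANT in place of TGANTCA, called shortened composites, on either strand. The first set belongs to genes of glycan synthesis and of transcription. The site of *St8sia4* lies in an untranslated region, and its sequence is not shown.
Man1a (chr10:54026728-54027027): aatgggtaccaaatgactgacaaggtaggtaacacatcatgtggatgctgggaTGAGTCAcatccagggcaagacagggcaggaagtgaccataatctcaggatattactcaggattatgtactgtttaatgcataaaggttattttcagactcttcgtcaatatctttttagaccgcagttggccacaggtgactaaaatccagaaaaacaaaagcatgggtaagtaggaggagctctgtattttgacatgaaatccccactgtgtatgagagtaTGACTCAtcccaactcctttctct
B3galt2, left peak (chr1:143536120-143536236): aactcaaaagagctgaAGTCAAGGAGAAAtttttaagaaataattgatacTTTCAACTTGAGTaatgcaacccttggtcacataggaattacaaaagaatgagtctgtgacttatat
B3galt2, right peak (chr1:143536489-143536646): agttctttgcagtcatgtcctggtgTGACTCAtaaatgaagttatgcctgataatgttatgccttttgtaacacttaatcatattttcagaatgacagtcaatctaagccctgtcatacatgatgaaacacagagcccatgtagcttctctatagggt
Trps1 (chr15:50361963-50362094): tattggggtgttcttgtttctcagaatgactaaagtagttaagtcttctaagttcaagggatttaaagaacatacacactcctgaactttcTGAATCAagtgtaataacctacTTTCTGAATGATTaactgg
Prdm14 (chr1:13155431-13155583): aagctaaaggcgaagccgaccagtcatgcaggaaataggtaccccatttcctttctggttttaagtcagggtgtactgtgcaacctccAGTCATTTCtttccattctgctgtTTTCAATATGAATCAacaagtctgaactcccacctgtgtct
Hif1a (chr12:73888100-73888294): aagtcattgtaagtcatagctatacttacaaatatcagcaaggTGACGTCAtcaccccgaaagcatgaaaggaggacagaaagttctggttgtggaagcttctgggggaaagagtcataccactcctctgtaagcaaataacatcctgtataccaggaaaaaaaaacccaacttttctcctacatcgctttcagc

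The second set belongs to genes of signalling, secretion, meiosis and antioxidant defence.
Arhgef3 (chr14:27384243-27384366): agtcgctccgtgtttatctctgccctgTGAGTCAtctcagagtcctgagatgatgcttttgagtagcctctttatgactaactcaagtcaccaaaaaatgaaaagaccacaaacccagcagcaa
Twsg1 (chr17:65961575-65961837): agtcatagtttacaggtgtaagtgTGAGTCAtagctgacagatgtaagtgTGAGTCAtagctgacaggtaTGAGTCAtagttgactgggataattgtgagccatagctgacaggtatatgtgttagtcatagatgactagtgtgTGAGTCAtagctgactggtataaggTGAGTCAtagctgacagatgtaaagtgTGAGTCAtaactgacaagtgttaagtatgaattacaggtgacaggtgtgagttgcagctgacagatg
Hormad2 (chr11:4438325-4438475): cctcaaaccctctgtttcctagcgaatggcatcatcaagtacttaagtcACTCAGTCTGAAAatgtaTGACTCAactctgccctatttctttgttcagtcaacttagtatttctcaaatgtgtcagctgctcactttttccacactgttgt
Prdx6 (chr1:161309355-161309555): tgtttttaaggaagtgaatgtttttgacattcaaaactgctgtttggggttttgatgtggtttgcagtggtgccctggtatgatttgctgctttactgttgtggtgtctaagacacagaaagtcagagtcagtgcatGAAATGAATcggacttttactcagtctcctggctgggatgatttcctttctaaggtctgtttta

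An AP-1 site (TGACTCA or TGAGTCA) lay within 100 bp of the mean summit at 4 of the 10 sites, those of *Arhgef3*, *Twsg1*, *Hormad2* and *B3galt2*. Among all merged regions the share was 17.0%, and in flanks 2000 bp to either side of them 3.41%. Of the 14 other regions called in all 4 libraries, 7 had an AP-1 site. At *Man1a* 2 AP-1 sites lay just outside this window. *Trps1* and *Prdm14* had TGAATCA, which raised the count to 6 of 10 for TGANTCA (20.7% of all regions), and *Hif1a* had a CRE, which was found in 0.221% of all regions.

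The glycosylation enzymes are described first, and their share was not compared with that over all genes. *Man1a* encodes a Golgi alpha-mannosidase that trims N-glycans, *St8sia4* a polysialyltransferase that builds polysialic acid chains, and *B3galt2* a beta-1,3-galactosyltransferase.

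The *Man1a* site (chr10:54026603-54027086) lay in intron 3 of 12 of the gene, 48.8 kb downstream of its start site. BATF fold enrichment there was 7.11 and 9.07 in Th9 cells (libraries 1 and 2) and 16.4 and 9.23 in Th17 cells (libraries 3 and 4). Th17 library 3 stood above the others, and both Th17 values lay above both Th9 values. The summits of the 4 libraries spread over 210 bp, more than at any other site with a single peak per library. The region held 2 AP-1 sites 223 bp apart, one 6 bp from the summit of Th9 library 2 and the other 19 bp from that of Th17 library 4. Neither fell within 100 bp of the mean summit, which lay between them.

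The *St8sia4* site (chr1:95590173-95590522) lay in exon 5 of 5, in the annotated 3′ untranslated region, 77.2 kb from the start site. Its fold enrichment was 5.81 and 7.30 in Th9 cells and 9.58 and 9.73 in Th17 cells, so that the groups did not overlap. It was the only site with neither TGANTCA in the region nor a CRE in the window, and it held an interferon-response-type element, GAAACAGAAA, 72 bp from the mean summit (3.76% of all regions had such an element). Its window held 4 stretches of 7 bases that differed from the AP-1 site by 1 base. Of all regions, 2.61% had as many, a measure chosen after the values were seen. Against IgG only, Th9 library 1 had no peak here.

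The *B3galt2* site (chr1:143536078-143536665) lay between genes, 104.2 kb upstream of the start site, and consisted of 2 neighbouring peaks. Th17 libraries 3 and 4 called both, with summits 369 and 410 bp apart, Th9 library 1 called the right one only, and Th9 library 2 had a single peak of 428 bp that reached into both. The right peak, with an AP-1 site, had a fold enrichment of 7.46 and 10.1 in Th9 cells and of 9.03 and 6.48 in Th17 cells. The left peak had 7.34 and 8.11 in Th17 libraries 3 and 4. It held no AP-1 site and 2 shortened composites, one of them, TTTCAACTTGAGT, 6 bp from the summit of Th17 library 3. In Th17 library 4 the left peak was the higher one, and in Th17 library 3 the right one.

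Of the transcription factor genes, *Hif1a* encodes the oxygen-regulated factor that drives glycolytic genes and is known to favour Th17 over regulatory T cells. *Trps1* encodes a GATA-type zinc-finger repressor, and *Prdm14* a PR-domain factor of pluripotent and germ cells.

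The *Hif1a* site (chr12:73887990-73888344) lay 13.1 kb upstream of the start site, outside RefSeq genes and inside the antisense transcript Gm15283 of GENCODE. Enrichment was 9.33-fold and 7.47-fold in Th9 cells and 19.2 and 7.57 in Th17 cells. Library 3 alone stood apart, and library 4 lay within the range of the Th9 values. The CRE TGACGTCA was centred 3 bp from the summit of Th17 library 4 and 42 bp from the mean summit, and no TGANTCA was present in the region.

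The *Trps1* site (chr15:50361870-50362207) lay 527 kb downstream of the start site, past the end of the gene and outside any annotated gene. The 4 libraries gave fold enrichments of 19.6 and 7.17 in Th9 cells and 15.8 and 10.3 in Th17 cells. The 19.6 was the highest of the 1709 peaks of Th9 library 1, while Th9 library 2 ranked it at percentile 63.1 of its list and, against input only, at 18.8. The 4 summits lay within 31 bp of each other. TGAATCA was centred 13 bp from the nearest of them, a shortened composite, TTTCTGAATGATT, 38 bp, and a STAT-type element, TTCTCAGAA, 29 bp. Of all regions, 8.87% had such a STAT-type element in the window.

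The *Prdm14* site (chr1:13155271-13155696) lay 28.3 kb upstream of the *Prdm14* start site, inside intron 16 of 22 of *Ncoa2*, a coactivator of nuclear receptors whose own start site was 218.6 kb away. BATF was enriched 14.1-fold and 11.9-fold in Th9 cells and 20.3 and 10.3 in Th17 cells, and it ranked at or above percentile 89.4 in every library. It was the only one of the 10 sites with a full bZIP:IRF composite, TTTCAATATGAATCA, 17 bp from the summit of Th9 library 1 (1.65% of all regions had a composite). A shortened composite on the minus strand, GAAATGACT, lay 2 bp from the summit of Th9 library 2. With the shortened form the count was 4 of 10 (*Trps1*, *Prdm14*, *Hormad2* and *Prdx6*) beside 7.85% of all regions.

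*Arhgef3* encodes a guanine nucleotide exchange factor, and *Twsg1* a secreted protein that binds bone morphogenetic proteins.

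The *Arhgef3* site (chr14:27384152-27384481) lay in intron 4 of 9 of the shortest transcript and intron 7 of 12 of the longest, 22.9 kb downstream of the nearest of the gene's start sites. At its edge the region overlapped an exon by up to 63 bp. Fold enrichment here was 18.1 and 10.5 in Th9 cells and 19.8 and 13.0 in Th17 cells. It had the highest median fold enrichment of the 10 sites, 15.5, and the narrowest spread of summits, 23 bp. Its single AP-1 site was 20 bp from the summit of Th17 library 4.

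The *Twsg1* site (chr17:65961475-65962161) lay 10.5 kb upstream of the start site, outside genes. Its fold enrichment was 7.15 and 10.1 in Th9 cells and 13.6 and 14.6 in Th17 cells, so that both Th17 values lay above both Th9 values. The region of 687 bp, the widest of the 10, held 16 copies of TGAGTCA, all on the plus strand, spaced 20 to 79 bp apart with a median of 27 bp. The sequence repeated itself most closely at a shift of 26 bp, where 47.7% of the bases were equal, against a median of 25.5% over shifts of 10 to 60 bp. Only 4.22% of its bases are masked as repeats in the reference. The window held 5 of the copies, and 3 of all 5873 regions held 5 or more. The summits fell at 2 places, those of Th9 library 1 and Th17 library 4 on the left and those of Th9 library 2 and Th17 library 3 on the right, so this split did not follow the cell type.

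*Hormad2* encodes a protein of the meiotic chromosome axis, and *Prdx6* a peroxiredoxin that also has phospholipase activity.

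The *Hormad2* site (chr11:4438258-4438552) lay in intron 1 of 10, 2.7 kb downstream of the start site, and was the only 1 of the 10 within 10 kb of a start site (21.0% of all regions). Its fold enrichment was 7.59 and 9.60 in Th9 cells and 16.4 and 9.24 in Th17 cells, with library 3 alone apart. An AP-1 site lay 20 bp and a shortened composite 5 bp from the summit of Th17 library 3. Against IgG only, Th17 library 4 had no peak.

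The *Prdx6* site (chr1:161309313-161309681) lay between genes, 58.3 kb upstream of *Prdx6* and 86 kb upstream of *Tnfsf4*, the gene of the costimulatory ligand OX40L. Its fold enrichment was 7.05 and 5.25 in Th9 cells and 8.65 and 8.11 in Th17 cells. The groups did not overlap, and Th9 library 2 had the lowest value of any library at any of the 10 sites, at percentile 20.7 of its own list, with no peak against input only. Its window held no TGANTCA, but a shortened composite, GAAATGAAT, lay 9 bp from the summit of Th9 library 2. A RUNX-type TGTGGTT, present in 7.20% of all regions, lay 8 bp from the summit of Th17 library 4.

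**Figure D1:**
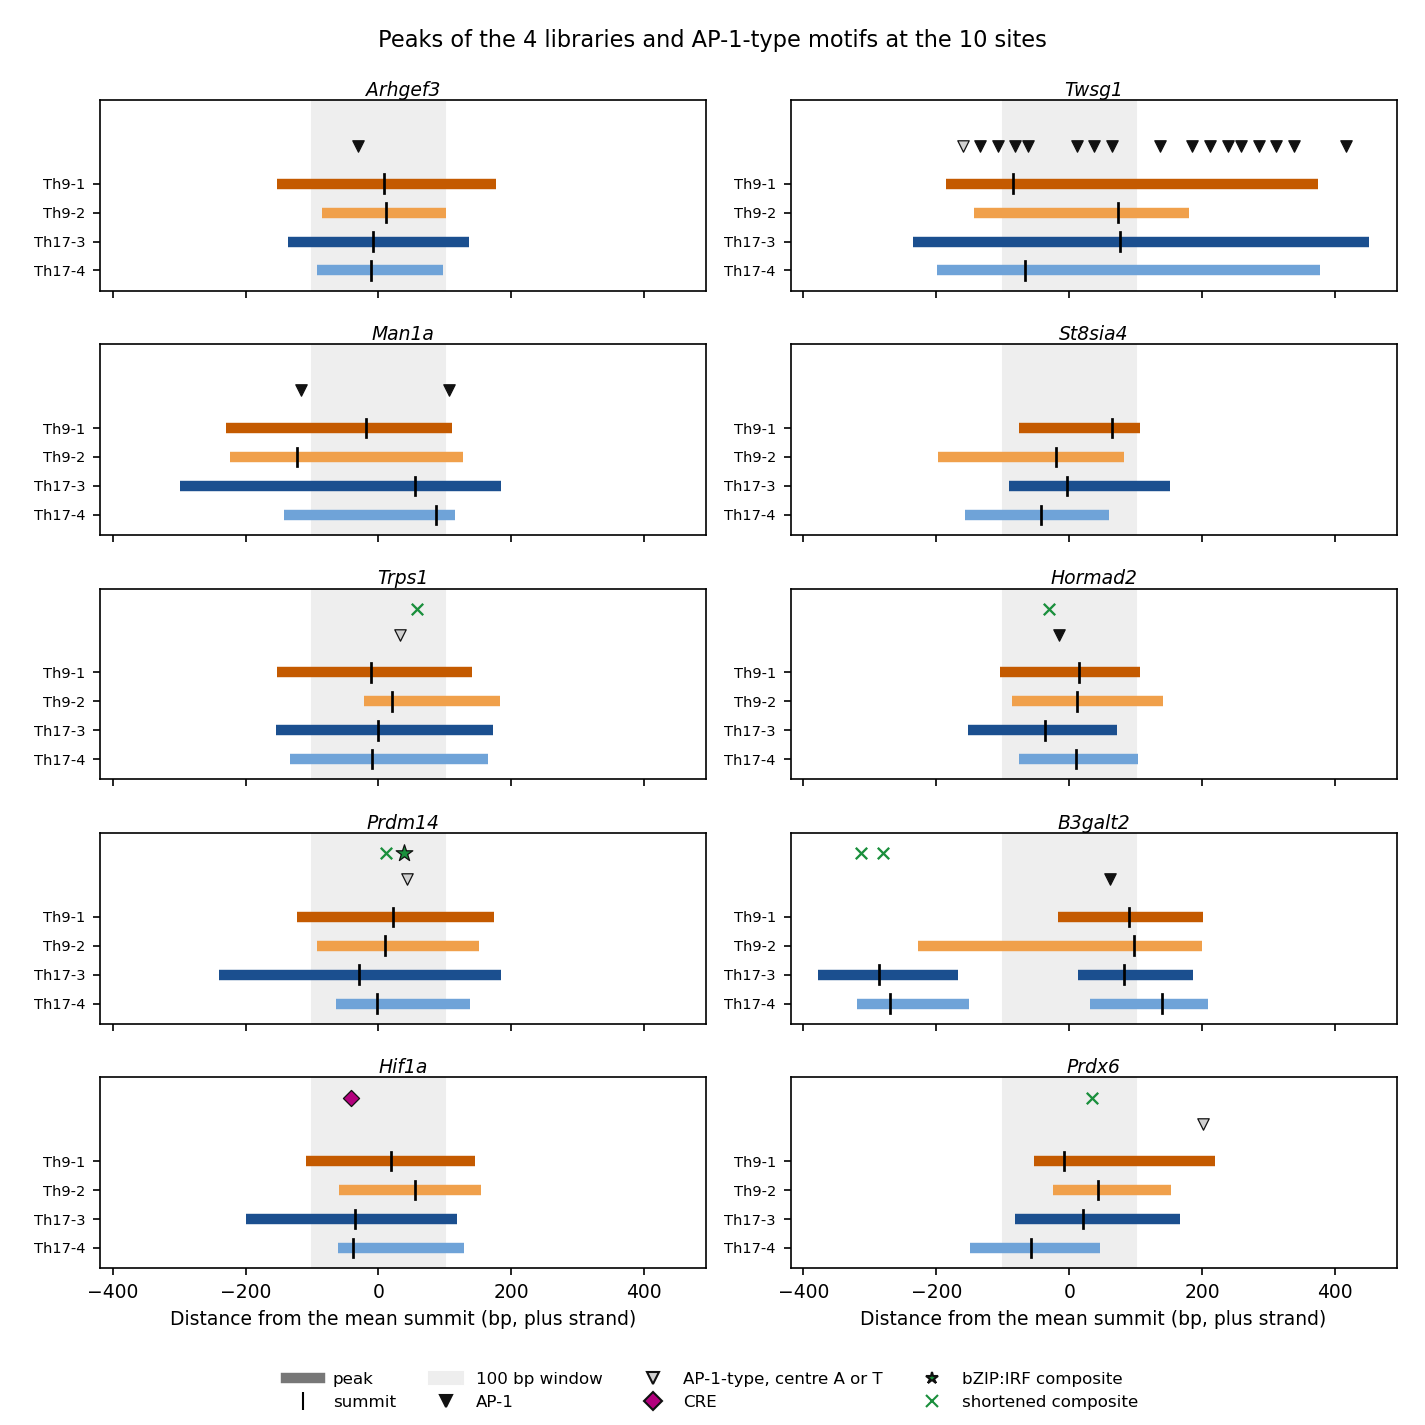
Peaks of the 4 libraries (horizontal bars) and their summits (black ticks) at the 10 sites, by distance from the mean summit in bp, with AP-1-type motifs above and the 100 bp window in grey. The *Twsg1* site shows its 16 AP-1 sites, the *B3galt2* site its 2 peaks, and the *Man1a* site an AP-1 site on either side of the window.

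The summits of the 4 libraries lay within 100 bp of each other at 6 of the 10 sites, and the median range was 97 bp. The merged sites had a median width of 362 bp against 191 bp for all regions, which regions joined from more libraries reach by construction. None of the 10 windows had more than 50% of its bases masked as repeats (16.7% of all regions had), and 4 had no masked base. The range over the 10 was 0% to 22.9%. The median GC content of the windows was 40.8%, and 41.3% over all regions. In 4 of 10 the summit lay in the body of the nearest gene (32.9% of all regions) and in 5 of 10 in the body of any gene (46.0%). The remaining motifs searched were present in at most 2 windows each. A GATA-type AGATAA was in 2 (13.3% of all regions). A RUNX-type TGTGGTT (7.20%), an NFAT-type TGGAAAA (6.64%) and a ROR-type TAGGTCA (2.37%) were in 1 each. An ETS-type CCGGAA (1.74%), an extended MAF site TGANTCAGC (2.95%) and the CTCF core (0.528%) were in none. With only 10 windows, such small counts cannot be set apart from these shares.

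The distance to the nearest start site had a median of 38592 bp over the 10 sites and of 38203 bp over all regions. The choice of the nearest gene was close at 3 sites. At *Trps1* the start of *Mir1907* was 65 bp farther, at *St8sia4* that of *Gm30431* 107 bp and at *Man1a* that of *Gm16998* 185 bp. At all 10 sites the summit of every single library was nearest to the same gene as the mean summit.

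**Figure D2:**
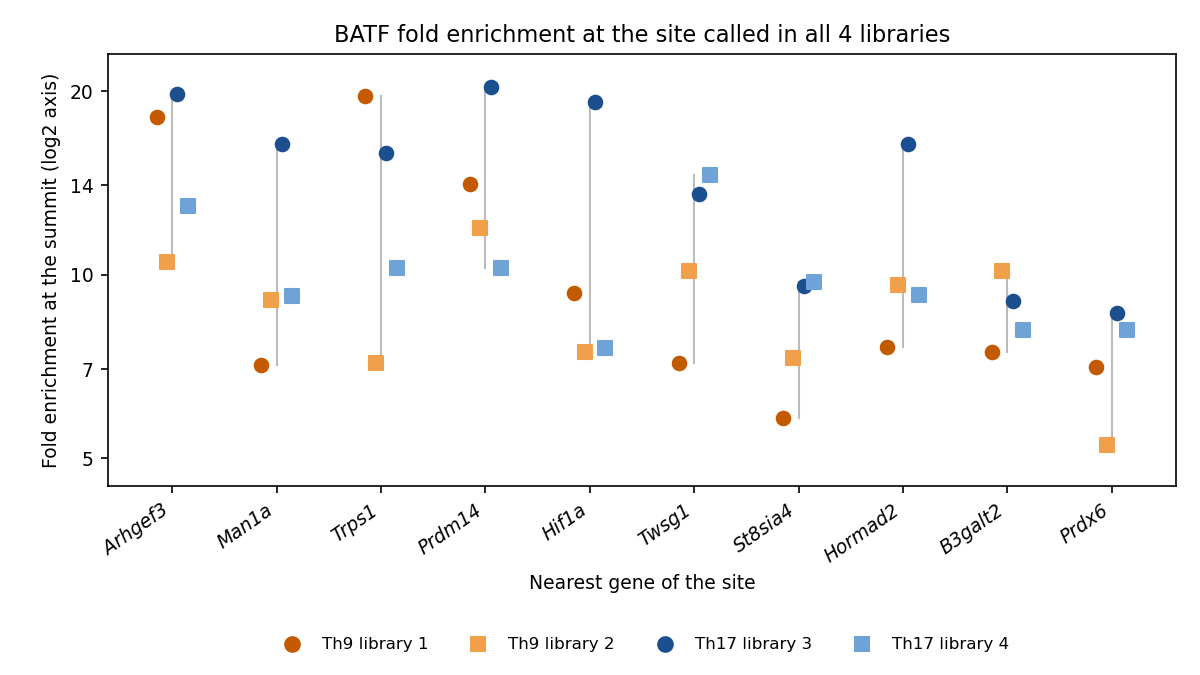
Fold enrichment at the summit (log2 axis) of the 10 sites in Th9 libraries 1 and 2 (orange) and Th17 libraries 3 and 4 (blue), with a grey line from the lowest to the highest library. Th17 library 3 was highest at 6 sites, and both Th17 values lay above both Th9 values at *Man1a*, *Twsg1*, *St8sia4* and *Prdx6*.

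Whether the sites differed between Th9 and Th17 cells was compared over the libraries. The choice of the sites did not use the sign of this difference. It did require a peak in every library, so regions called in 1 cell type only could not enter, which limits the differences that can be seen. Both Th17 fold enrichments lay above both Th9 values at 4 of the 10 sites and at 33.3% of the 24 regions called in all 4 libraries, and both lay below at none of the 10 (0% of the 24). Only at *Twsg1* did this hold with each single control. Against IgG only, *Man1a* had 8.66 in Th17 library 4 and 9.07 in Th9 library 2. Against input only, *St8sia4* had 8.18 in Th17 library 4 and 8.54 in Th9 library 2. There *Prdx6* had 5.83 in Th17 library 3 and 6.32 in Th9 library 1, without a peak in Th9 library 2. The largest mean difference, Th17 minus Th9 on the log2 scale, was 0.72 at *Twsg1*, a ratio of 1.65, followed by 0.61 at *Man1a* and 0.57 at *St8sia4*. The smallest was −0.02, at *B3galt2*, where Th17 library 4 entered with the left peak. An exact two-sided permutation test over the 4 libraries gave p = 0.333 for the 4 separated sites, the smallest that 2 against 2 libraries allow, and an adjusted p of 0.941 over the 24 regions (Benjamini-Hochberg), so no site could pass a threshold of 0.05. Fold enrichment is not scaled between libraries, and library 3, with the most peaks, was the highest at 6 of the 10 sites. By percentile within the list the difference was positive at 6 sites in place of 9, and it was negative at *Prdm14*, *Hif1a*, *Hormad2* and *B3galt2*. Percentiles in lists of 199 to 4111 peaks are not on 1 scale, since the 2 shorter lists had the higher median fold enrichment, so these signs are no measure of a difference between the cell types.

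**Figure D3:**
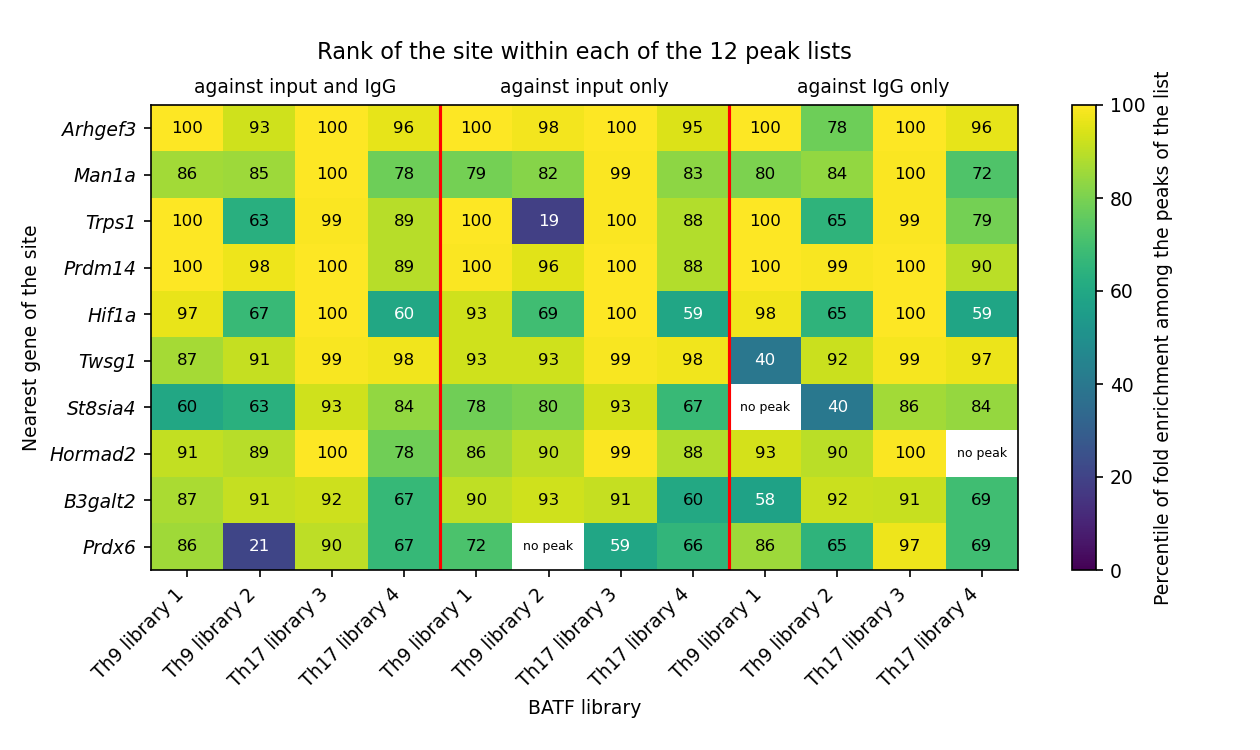
Percentile of the fold enrichment of each site among all peaks of its list, rounded, for the 4 libraries against each of the 3 controls, where white cells mark lists without a peak at the site. The *Prdm14* site is at or above percentile 88.4 in every list, and the *Trps1* site (input only) and the *Prdx6* site (input and IgG) of Th9 library 2 are the lowest, at 18.8 and 20.7.

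The 10 sites had a median percentile of 89.1 and 87.3 among the peaks of Th9 libraries 1 and 2, and of 99.6 and 81.2 in Th17 libraries 3 and 4. Their range was widest in Th9 library 2, from 20.7 to 97.5, and narrowest in Th17 library 3, from 90.2 to 99.9. A peak was listed in all 12 lists at 7 of the 10 sites. The exceptions were *St8sia4*, *Hormad2* and *Prdx6*, each absent from 1 list. Just inside the rule, the weakest library was Th9 library 2 at *Prdx6*, with a −log10 q of 3.68, then Th9 library 1 at *St8sia4* with 4.60. Just outside it were the 59 regions called in 3 libraries, of which 27 lacked a peak of Th17 library 4 and 21 one of Th9 library 2. In 10 of the 59 the missing library had a peak there against input only or IgG only.

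**Figure D4:**
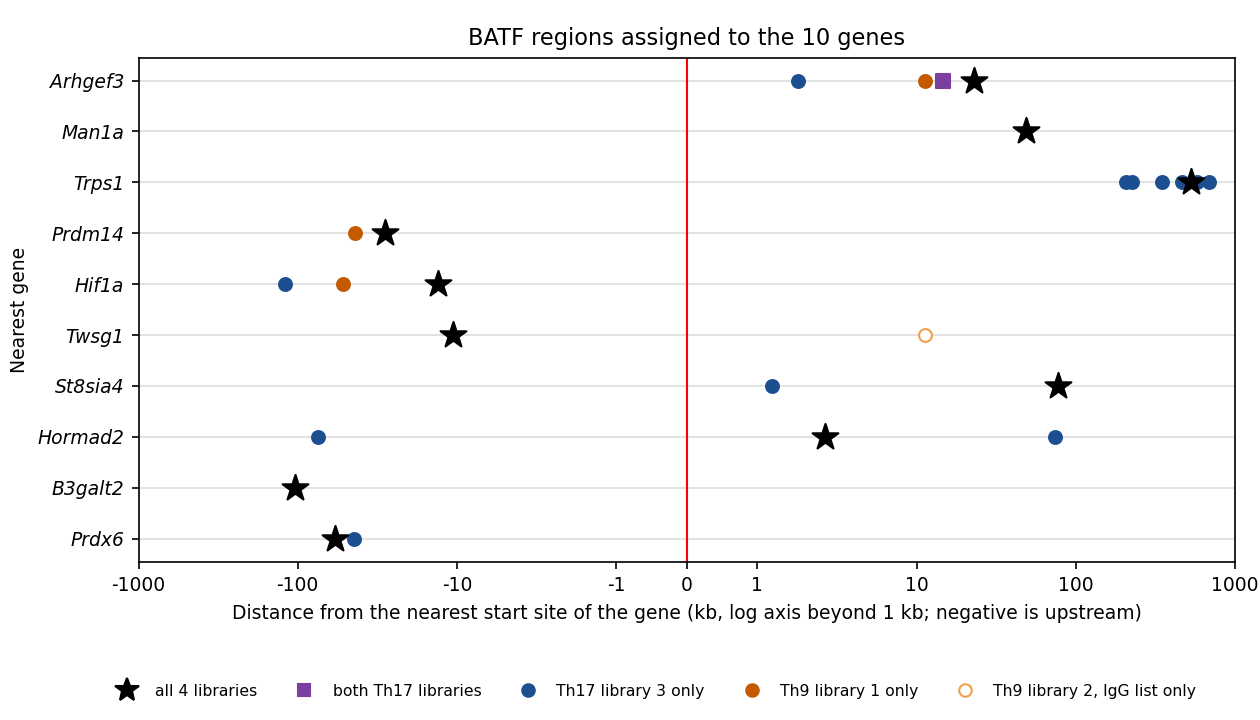
BATF regions assigned to the 10 genes by distance from the nearest start site in kb (log axis beyond 1 kb, negative is upstream), with the site called in all 4 libraries as a star and a peak listed only against IgG as an open circle. *Trps1* had the most other regions, 6, all from Th17 library 3, and only *Arhgef3* had a region called in both Th17 libraries.

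Another 16 regions were nearest to these genes. Of these, 12 were called in Th17 library 3 only and 3 in Th9 library 1 only, and among all regions called in 1 library 69.0% came from Th17 library 3. At least 1 such region was present at 7 of the 10 genes, and 23.1% of the genes with any region had 2 or more. The genes also cover more sequence than most. The stretch nearest to their start sites was 95.6 to 1302 kb against a median of 43.2 kb over all genes. Other regions numbered 5.56 per Mb there, and all regions together 2.15 per Mb of the genome. *Man1a*, *Twsg1* and *B3galt2* had no other region.

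The other region with the most support lay in another intron position of *Arhgef3* (chr14:27376057-27376303), 8.2 kb from its main site and 14.8 kb from the start site. It was called in Th17 library 3 with a fold enrichment of 8.68 and in Th17 library 4 with 11.3, and in neither Th9 library against any control. Against input only, Th17 library 3 had no peak there, so that the call in both Th17 libraries was lost with that control. Of all regions, 0.885% were called in both Th17 libraries and no Th9 library. It held no AP-1 site, and 36.8% of its window is masked. *Arhgef3* had 2 further intronic regions, 1.8 kb (Th17 library 3, fold enrichment 5.53) and 11.3 kb (Th9 library 1, 6.22) downstream of a start site, each with 2 AP-1 sites in the window.

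The 6 other regions of *Trps1* were all called in Th17 library 3 alone, 205.8 to 688.7 kb from the start site, and one of them lay in a coding exon of the gene. A second region at *Prdm14* (Th9 library 1, fold enrichment 5.81) again lay in an intron of *Ncoa2* and held an AP-1 site. Of the 16 regions, 4 had an AP-1 site (17.0% of all regions). Within 10 kb of a start site lay 2 (21.0% of all regions), the one at *Arhgef3* above and one in an intron of *St8sia4* at 1.2 kb (Th17 library 3, fold enrichment 5.65). The fold enrichments of all 16 ran from 4.52 to 11.3.

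Relatives of the 10 genes by family or pathway numbered 89 genes with a start site, and 18 of them had a region, beside 16.6% of all genes. Of these, 1 had a region called in 2 or more libraries (0.970% of all genes), *Mgat5*, the enzyme that adds the branch of N-glycans on which galectin-binding chains are built and that restrains T cell activation. It acts after *Man1a* in the same pathway. The counts of relatives with a region, and with a region in 2 or more libraries, were near the shares over all genes. *Mgat5* had 5 regions, and the one in an intron 140.1 kb from its start site was called in Th9 library 1, Th17 library 3 and Th17 library 4. Its fold enrichments ran from 6.03, in Th9 library 1, to 11.3, in Th17 library 3. Each of the other *Mgat5* regions was called in 1 library. The 10 other glycan-trimming and branching enzymes listed had no region. Among hypoxia-pathway genes 3 of 9 had a region, *Epas1*, *Egln3* and *Vhl*, and among PRDM factors 3 of 14, *Prdm1*, *Prdm13* and *Mecom*, with every one of these regions called in 1 library. Sialyltransferase relatives and the polysialic acid carrier *Ncam1* gave 3 of 6, beta-1,3-galactosyl- and N-acetylgalactosaminyltransferases 2 of 6, extracellular modulators of bone morphogenetic proteins and their proteases 2 of 10, GATA factors 1 of 6 (*Gata3*), peroxiredoxins, thioredoxins and thioredoxin reductases 1 of 9 (the reductase *Txnrd1*), and HORMA-domain proteins with their remodeller *Trip13* 0 of 4.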

How the data were processed

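Alignment by the authors was to mm10, the GRCm38 build, using bowtie2. Their peak caller was MACS2, run on read pairs without removing duplicates (q limit 0.01). The submitters' processing notes name Trim Galore 0.4.3 and MACS2 2.1.0. Each deposited list gives fold enrichment, a ratio over the control level at the summit, the deposited −log10 q-value and the summit. The control of a list is known from its name only. Beyond the approximate number of reads in the paper, no read counts are given, so the exact depth of each library is unknown. The number of peaks limits the precision, and a place without a peak is not shown to be unbound.

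Peaks sharing 1 bp were merged over the 4 libraries. The strongest peak of a library gave its value, and the mean of the libraries' summits the position. The nearest start site at any distance came from curated transcripts of RefSeq release 108.20200622. Motifs were searched on both strands, as AP-1, the broader TGANTCA, the CRE and the bZIP:IRF composites (letters as given with the results), further a STAT motif (TTCNNNGAA), an ISRE motif (GAAA repeated after 2 bases), an ETS motif (CCGGAA), a RUNX motif (TGTGGTT), an NFAT motif (TGGAAAA), the motif of GATA factors (AGATAA), a ROR motif (TAGGTCA), the extended MAF site (TGANTCAGC) and the CTCF core. TGANTCA includes the AP-1 site, and the composites may overlap both. A match is a description of letters. Repeats are the masked bases of the reference. The 10 genes, the 89 relatives and the motif list were chosen with earlier results of these data known. The count of 1 family of relatives is not reported here. Genes named are the 10, those that hold a site or have the next nearest start site, relatives with a region in 2 or more libraries, and others that a count of 5 or fewer consists of, chosen after their values were seen. Merging, assignment, motif search and the permutation test were tested on simulated data. Alternatives were the single controls, a minimum −log10 q of 5, 50% reciprocal overlap, other gene sets, other windows and motifs, a limit of 10 kb, and each library left out. Python 3.11.15, numpy 2.4.6, pandas 2.3.3, pysam 0.24.0 and matplotlib 3.10.9 were used.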

Additional observations from a re-analysis of the deposited data

Results flagged for a closer look

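One peak near these genes was called against a single control and is not among the regions counted above. In Th9 library 2, the list called against IgG only held a peak in an intron of *Twsg1* (chr17:65939839-65940031), 11.2 kb downstream of the start site, with a fold enrichment of 9.07 and an AP-1 site in its window. No other list of any library had a peak there.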

How the results depend on the processing

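No paired analysis was possible because no replicate number occurs in both cell types (1 and 2 in Th9, 3 and 4 in Th17). Of 122 recalculated values, 100 kept the sign of a difference, stayed within 1.5 times a count or, for the median percentile, moved by less than the SD between libraries. Of the others, 10 counts moved further and 12 differences changed sign, and the cause was not tested unless the construction shows it.

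Fewer peaks, by construction, left fewer regions. With a minimum −log10 q of 5, 7 other regions and 7 relatives with a region remained, and the sites of *St8sia4* and *Prdx6* were lost. With 50% reciprocal overlap, 6 of the 10 genes had a site (not *Prdm14*, *Twsg1*, *B3galt2* and *Prdx6*), and with a start site within 10 kb, 4 relatives had a region. With all RefSeq transcripts, predicted genes were nearer at *Arhgef3* and *B3galt2*, leaving 8. The shortened composite was in 4 windows. An AP-1 site anywhere in the merged region, an alternative chosen after seeing the data, was in 5. Of all merged regions 17.5% had one, but the 10 sites are wider, with a median of 362 bp against 191 bp.

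With each library left out in turn, 24 regions became 29 to 51 (51 without Th17 library 4, 45 without Th9 library 2), the 10 genes kept a site as the rule that chose them requires, other regions numbered 4 to 16 (4 without Th17 library 3), and relatives with a region 10 to 18 (10 without Th17 library 3, 11 without Th9 library 1).

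The sign of the Th17 minus Th9 difference (log2) changed at 6 sites. Leaving out a library gave −0.18 to 0.61 at *Arhgef3*, −0.62 to 0.83 at *Trps1*, −0.34 to 0.65 at *Prdm14*, −0.14 to 1.20 at *Hif1a* and −0.24 to 0.20 at *B3galt2*. Without Th17 library 3, 5 of 10 differences were positive, and without Th17 library 4 all 10. By percentile within the list, a scale that differs between lists of unequal length and alone gave the change at *Hormad2*, the differences were −3.96 points at *Prdm14*, −2.22 at *Hif1a* and −1.06 at *Hormad2*, and against IgG only that of *B3galt2* was 0.16. *St8sia4* and *Hormad2* gave no value against IgG only, nor *Prdx6* against input only.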
